A study of Mus musculus with 10 samples.

Results

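The regions described here are binding sites of p63 that lie far from any protein-coding gene. They were taken from a single deposited list of p63 peaks of mouse keratinocytes (build mm10) as the peaks on chromosomes 1 to 19 whose midpoint lay outside every protein-coding gene and over 100 kb from the nearest end of any, by RefSeq gene extents. The rule found 746 peaks among 8294 on these chromosomes and 8451 in the whole list, a share of 8.99% (95% Wilson interval 8.40 to 9.63%). They are called gene-poor peaks below, and the DNA that meets the same rule is called gene-poor DNA.

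The study sequenced chromatin immunoprecipitates (ChIP-seq) of p63, of H3K4me1, H3K4me3 and H3K27ac, and input chromatin, in the mouse keratinocyte lines MK1 and MK2, for 10 libraries in 5 kinds. No treatment or genotype is given for either line, and the labels tell them apart by number only. The peak list rests on the 2 p63 libraries, made with the antibody 4A4, and the other 8 libraries were not used here. It was made from both lines together by the irreproducible discovery rate, so it carries no score, no read count and no spread between MK1 and MK2, and read depth is unknown. Every interval below covers counting error only, neighbouring peaks are not independent, and no difference between sets of peaks was tested. RNA was not measured, so neither the keratinocyte label nor the expression of a neighbouring gene could be checked.

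p63 is the member of the p53 family that stratified epithelia such as the epidermis depend on for their basal cells. It binds as a tetramer to DNA that holds a pair of half-sites, each with the core C, A or T, A or T, G, and most of its sites lie away from promoters, at enhancers. Long stretches without coding genes are common beside genes of developmental regulators, and enhancers in them can act on a gene across great distances.

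Of all microRNA genes, Mir205 was the only one within 10 kb of a gene-poor peak. Mir205 encodes an epithelial microRNA that is abundant in the basal epidermis. Its hairpin lies at chr1:193507463-193507530 (GRCm38.p6, the assembly of mm10, minus strand) inside the long noncoding host transcript Mir205hg. The mature sequences, from RefSeq, are shown because the largest groups of gene-poor peaks adjoin this gene, with the seed (bases 2 to 8) in capitals.
mmu-miR-205-5p: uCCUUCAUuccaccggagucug
mmu-miR-205-3p: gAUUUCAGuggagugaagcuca

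Starts of noncoding genes are the only annotated starts that gene-poor peaks can meet under the rule. RefSeq windows of 300 bases, from 250 before to 50 after a start, were touched by 14 gene-poor peaks (1.88%), which met 15 windows of 14 genes, all long noncoding RNA (lncRNA) genes. The windows of Gm30257, at chr2:72733571-72733870 on the plus strand, and of D730003K21Rik, at chr9:116327073-116327372 on the plus strand, are shown because a pair of p53-family cores lay within 10 bases of the peak's midpoint in each. Capitals mark the core pair (the core given above, any 6 bases, and the core again) and, in Gm30257, the AP-1 motif TGANTCA before it.
Gm30257: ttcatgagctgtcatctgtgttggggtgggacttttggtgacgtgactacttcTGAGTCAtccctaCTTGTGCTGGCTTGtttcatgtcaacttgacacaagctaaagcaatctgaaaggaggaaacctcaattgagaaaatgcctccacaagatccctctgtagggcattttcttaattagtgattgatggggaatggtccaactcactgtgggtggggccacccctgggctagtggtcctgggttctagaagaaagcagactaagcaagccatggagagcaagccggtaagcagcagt
D730003K21Rik: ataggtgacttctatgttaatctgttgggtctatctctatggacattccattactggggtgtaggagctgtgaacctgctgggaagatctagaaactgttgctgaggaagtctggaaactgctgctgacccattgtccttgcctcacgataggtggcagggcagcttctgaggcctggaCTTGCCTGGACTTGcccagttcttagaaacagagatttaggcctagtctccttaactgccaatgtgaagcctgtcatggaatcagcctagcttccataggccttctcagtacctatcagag

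In Gm30257, which lies between Cdca7 and Sp3, the pair read CTTGTGCTGGCTTG at bases 67 to 80 of the window, counted from its 5′ end. Its middle was 0.500 bases from the midpoint of the peak, a region of 351 bp at chr2:72733469-72733819, and TGAGTCA began at base 54. In D730003K21Rik, between Tgfbr2, a receptor of transforming growth factor beta, and Rbms3, the pair read CTTGCCTGGACTTG at bases 180 to 193, 9.50 bases from the midpoint of a peak of 221 bp at chr9:116327139-116327359. These windows were chosen for that closeness. Pairs lay in 2 other windows as well: Gm31013 held CATGTCCCCACAAG and AI197445 held CAAGTAGAAACTTG, at 51 and 48 bases from the peak's midpoint.

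Searched on both strands, the core pair was in 4 of the 15 windows (26.7%), each time inside the peak, in 71 of 330 windows touched by any other peak (21.5%), and in 7.22% of all 32851 windows (8.49% of those of noncoding genes). The wide interval of the first share (10.9 to 52.0%) covers the share at other peaks. The AP-1 motif was in 5 of the 15 windows (33.3%, 15.2 to 58.3%), 16.7% of the windows at other peaks, 9.25% of those of noncoding genes and 7.81% of all. The single core CATG, which can form part of a core pair, was in 10 of the 15 windows (66.7%), in 57.3% of the windows at other peaks, in 70.0% of those of noncoding genes and in 61.1% of all. Letters in a window are a description of that window only, and the sequence of peaks away from gene starts was not analysed here.

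p63 peaks thinned out with distance from coding genes. Gene-poor DNA made up 27.4% of the annotated length of chromosomes 1 to 19 (657.0 Mb) and held 1.13 peaks per Mb (95% exact Poisson interval 1.05 to 1.22), whereas the remaining 1745.0 Mb held 4.33 peaks per Mb (4.23 to 4.42), a density 3.82 times as high. Of the 746 peaks, 2 lay beyond the first or last annotated gene of a chromosome and are left out of this density. Peaks inside coding genes stood at 4.50 per Mb, and those between genes fell from 5.52 per Mb within 10 kb of a gene to 2.69 at 50 to 100 kb. Within gene-poor DNA the density was 1.90 per Mb (1.71 to 2.10) at 100 to 200 kb, 1.17 at 200 to 300 kb and 1.14 at 300 to 500 kb. At 500 to 1000 kb it was 0.352 (0.260 to 0.467), and beyond 1000 kb 0.350 (0.222 to 0.525). The fall was therefore not even: the values at 200 to 300 and 300 to 500 kb lay close together, as did those past 500 kb.

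**Figure D1:**
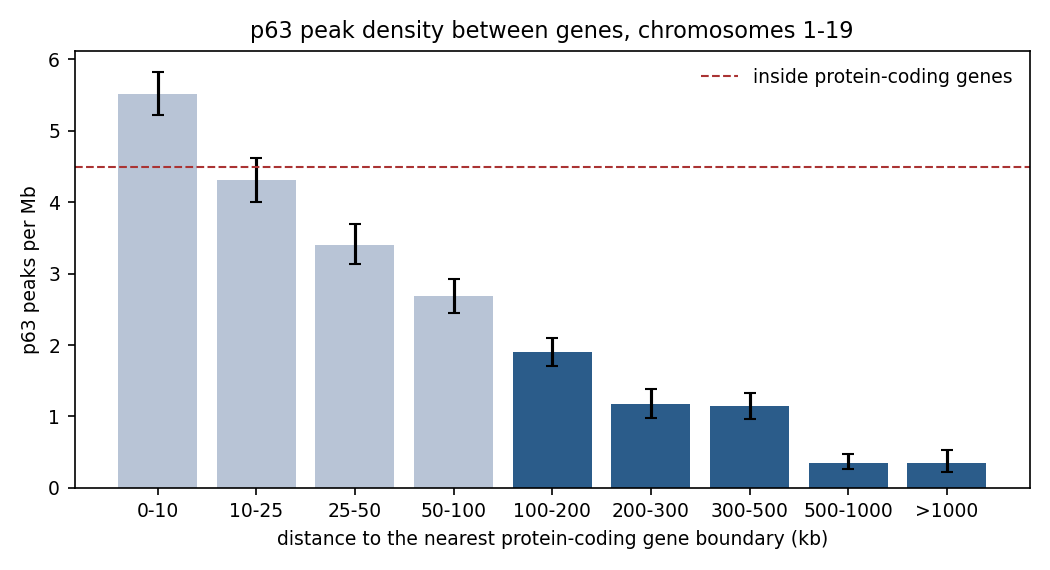
p63 peaks per Mb between protein-coding genes (y) by distance from the nearest gene boundary in kb (x). Bars are densities, error bars are 95% exact Poisson intervals, dark bars are gene-poor DNA and the dashed line is the density inside genes (4.50); the bars fall from 5.52 within 10 kb to 0.350 beyond 1000 kb.

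Most gene-poor peaks lay in the nearer part of this DNA. The median distance to the nearest gene boundary was 198.4 kb (quartiles 138.9 and 336.7 kb), 71 peaks were over 500 kb away and 23 over 1000 kb. The most remote peak, at chr14:81876066-81876316, lay 1853.0 kb from Olfm4 and 2567.4 kb from Pcdh17. The next 4 also had a protocadherin gene, of a family of neuronal adhesion molecules, on at least 1 side: 1 peak at 1751.7 kb from Pcdh20 with Pcdh9, another protocadherin gene, beyond, 1 at 1678.8 kb from Pcdh10 with D3Ertd751e beyond, and a pair 3.56 kb apart between Pcdh7 and G6pd2, at 1628.8 and 1625.3 kb from G6pd2. At the threshold, the 5 nearest peaks inside it lay 101.3 to 101.8 kb from Yipf5, Gadd45g, Palmd, Fbxo8 and Trpm3, with widths of 348, 280, 423, 305 and 387 bp. The 5 just outside it lay 99.7 to 99.8 kb from Btg1, Zfp36l1, Zmiz1, Setd4 and Hpgd, with widths of 348, 487, 486, 159 and 286 bp.

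By chromosome, the density in gene-poor DNA ranged from 0.572 per Mb on chromosome 19 (6 peaks, 0.210 to 1.24) to 1.83 on chromosome 13 (62 peaks, 1.40 to 2.34). Chromosome 15, which carries Myc, stood at 1.77, and chromosome 2, which carries Jag1, at 1.67. Gene-poor peaks were 19.1% of all peaks on chromosome 13 and 2.23% on chromosome 19.

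The peaks were gathered in a minority of the stretches that could hold them. A gene-poor peak needs over 200 kb between neighbouring coding genes, or over 100 kb beyond the outermost coding gene of a chromosome. Of 1386 such intervals, 347 held a peak (25%, 22.8 to 27.4%), and 192 of these held 1 peak. A larger share of the longer intervals held a peak, at fewer peaks per Mb. Of intervals up to 500 kb, 15.8% had 1 or more, at 2.52 per Mb of gene-poor DNA. For those over 2000 kb it was 52.1%, at 0.380 per Mb. The 15 intervals with most peaks (of 7 intervals with 6 peaks, the 2 with most per Mb were taken) held 138 peaks (18.5%) in 2.38% of the gene-poor length, and the first 100 held 442 (59.4%) in 12.7%. Without those 15, chosen for their counts, the density was 0.945 per Mb.

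Myc, a transcription factor of growth and proliferation, had gene-poor peaks on both sides and the most of any coding gene. The interval between A1bg, which encodes a plasma glycoprotein, and Myc on chromosome 15 led all others with 17 peaks, 19.7 per Mb of gene-poor DNA. They lay between 61105752 and 61686041, which is 299.6 to 879.2 kb from Myc, and were 331 to 1006 bp wide (median 517 bp). On the other side, between Myc and Gsdmc, a gasdermin gene, 9 peaks lay 102.5 to 1176.3 kb from Myc, 2 of them in the lncRNA gene Pvt1. Myc was the nearer coding gene for 16 of these 26 peaks. A single peak of any kind lay inside Myc or within 25 kb of it.

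Jag1, a ligand of the Notch receptors, shares the second interval with Btbd3, and its 15 peaks (16.0 per Mb) lay 109.0 to 691.3 kb from Jag1, on the side of the gene's start. Their widths ran from 179 to 701 bp with a median of 329 bp. Hes1, a transcriptional repressor induced by Notch, shares an interval of 402.2 kb with Opa1, a mitochondrial fusion gene, and this held 9 peaks in 202.2 kb of gene-poor DNA, 44.5 per Mb. These 9 formed 4 groups at 118.8 to 289.4 kb from Hes1 and were broad, with a median of 558 bp and a range of 315 to 798 bp. Dll1, another Notch ligand, had 4 gene-poor peaks in 77.3 kb. The nearer coding gene was Jag1 for 13 of its 15 peaks, Hes1 for 6 of its 9 and Dll1 for 1 of its 4. Other genes of the Notch pathway were not counted as a group. Inside or within 25 kb of the genes themselves lay 2 peaks for Jag1, 3 for Hes1 and 1 for Dll1.

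Mir205 lay in the third interval, between Camk1g, a calmodulin-dependent kinase gene, and Plxna2, a semaphorin receptor gene. Of its 12 peaks, 11 lay between 193508030 and 193588664 on chromosome 1, with midpoints 0.794 to 81.0 kb above the hairpin. The nearest, 589 bp wide, began 0.500 kb from the hairpin, inside Mir205hg, and the next, at 747 bp the widest of the 11, began 6.42 kb from it. Both Mir205hg and the hairpin are on the minus strand, so the peaks beyond the host transcript, whose upper end is at 193510210, lay upstream of it. They formed 2 groups of 5, spanning 19 and 22.6 kb, and 1 further peak, and no other gene-poor peaks formed a group of 5 when peaks within 10 kb were joined. The 12th peak of the interval stood 936.3 kb above the hairpin.

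**Figure D2:**
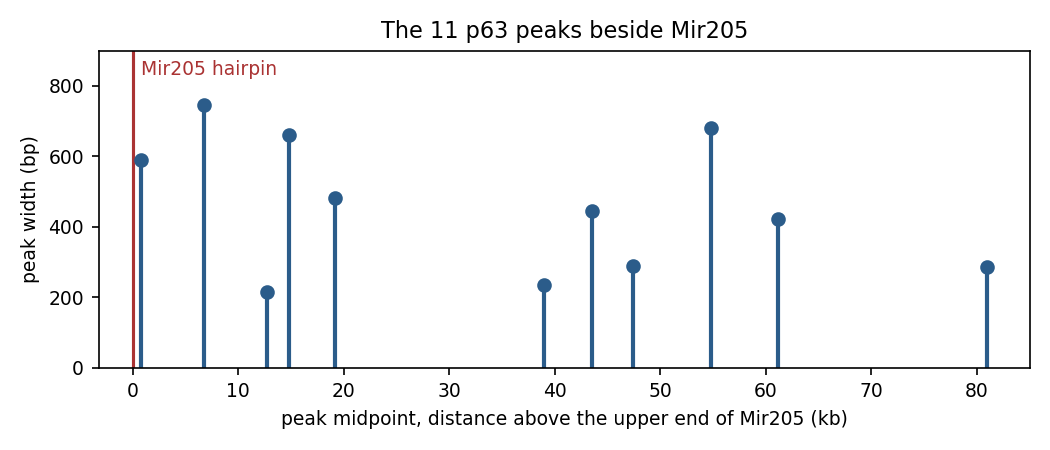
Width in bp (y) of the 11 p63 peaks beside Mir205 against the distance of each midpoint above the upper end of the hairpin in kb (x). Each stem is 1 peak; 5 peaks lie within 19.2 kb, 5 between 39.0 and 61.2 kb and 1 at 81.0 kb, with widths from 215 to 747 bp.

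Sox9, a transcription factor of hair follicle stem cells, had gene-poor peaks on both sides, as Myc did. On the lower side, towards Gm11677, 7 peaks lay 308.8 to 637.6 kb from Sox9. On the upper side, towards the zinc transporter gene Slc39a11, 6 peaks lay 133.0 to 317.9 kb from it, 4 of them in the lncRNA gene 2610035D17Rik. No peak lay inside Sox9 or within 25 kb of it, and Sox9 was the nearer coding gene for 4 of its 13 gene-poor peaks.

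The other leading intervals had varied neighbours. Fat1, which encodes an atypical cadherin, shares an interval with Adam34l that held 11 peaks at 132.9 to 691.4 kb from Fat1 (median width 277 bp), of which 1 was 906 bp wide. Epha4, an ephrin receptor gene, and Slc4a3, an anion exchanger gene, flanked 8 peaks at 222.4 to 1199.6 kb from Epha4. Efna5, an ephrin ligand gene, and Nudt12 flanked 8 peaks spread over an interval of 3589.6 kb, only 2.36 per Mb. The interval of Tmx1 and Frmd6, a FERM-domain gene of the Hippo pathway, was the opposite case, with 8 peaks in 157.8 kb of gene-poor DNA or 50.7 per Mb. The remaining 4 of the 15 were Adamts5 (an aggrecanase gene) to N6amt1 with 8 peaks, Cdh26 (a cadherin gene) to 4930591A17Rik with 7, Marcks (a substrate of protein kinase C) to Rfpl4b with 7 and Phlda1 to Krr1 with 6.

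**Figure D3:**
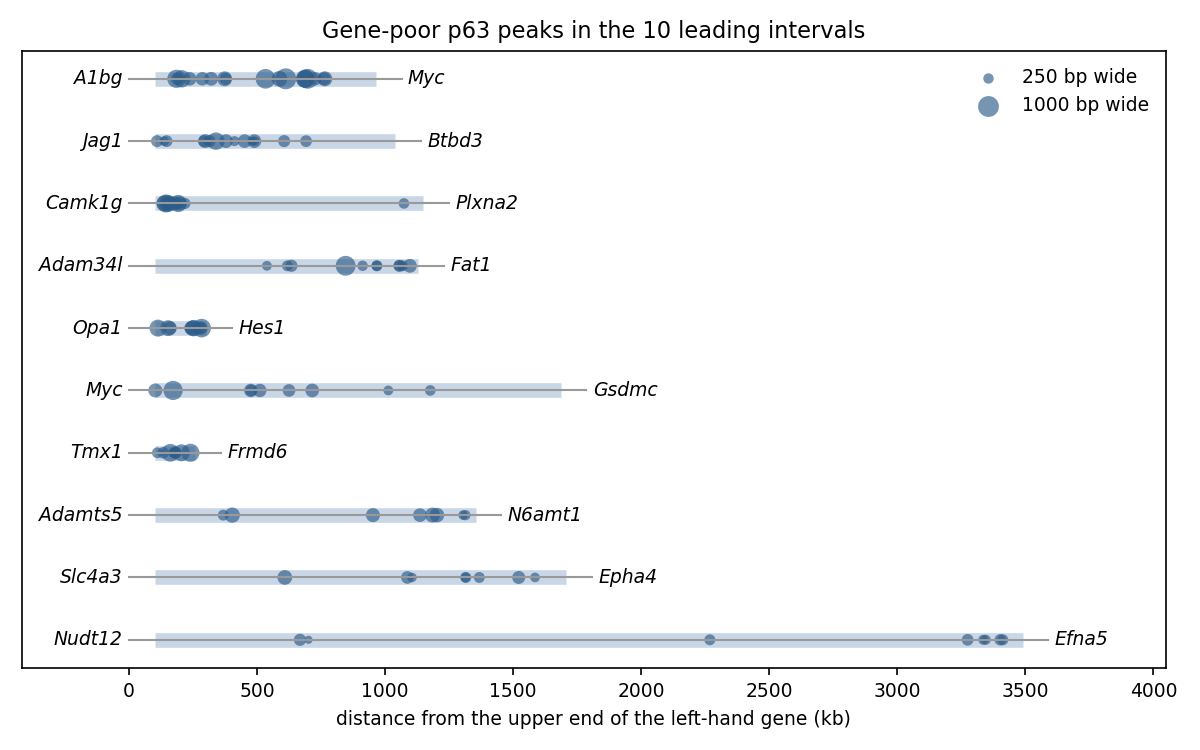
Gene-poor p63 peaks (points, area scaled to width) in the 10 intervals with most of them, by distance in kb from the upper end of the left-hand gene (x). Grey lines are whole intervals and pale bars their gene-poor part; the 17 peaks between A1bg and Myc spread over most of their gene-poor part, 11 of the 12 between Camk1g and Plxna2 bunch near Camk1g, and the 9 between Opa1 and Hes1 fill a gene-poor part of 202.2 kb.

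The genes beside gene-poor peaks were then counted by role. The lists of roles were written with earlier results of these data known, so the counts are a description and no independent support. In all, 2353 coding genes border gene-poor DNA and 664 of them (28.2%) had a gene-poor peak on that DNA, counting a peak for the gene on each side. Of 31 bordering transcription factors of epidermis and ectoderm, 15 had a peak (48.4%, 32.0 to 65.2%), at 4.86 peaks per Mb (3.86 to 6.03) of the gene-poor DNA beside them. This density was 4.06 without the interval of A1bg and Myc, with that of Myc and Gsdmc kept. Bordering gene-poor DNA had a median of 378.4 kb for this list, against 244.1 kb for all bordering genes. Longer intervals more often held a peak, as given above, and the share was not adjusted for length. Of the 82 peaks beside this list, 26 lay beside Myc, 13 beside Sox9 and 9 beside Hes1. After Myc, Sox9 and Hes1 came Klf5, a regulator of basal proliferation, with 6 peaks, and Klf4, a barrier factor, Bcl11b and Maf with 5 each. The nearer coding gene was Klf5 for 3 of its 6, Klf4 for 3 of its 5, and Bcl11b and Maf for 4 of 5 each. In the Klf5 interval 4 of the peaks lay in the lncRNA gene Gm34061. Several regulators of this list had gene-poor DNA beside them and no gene-poor peak, among them Gata3, Satb1, Nfib, Runx1 and Foxp1. Inside or within 25 kb of the genes themselves lay 10 peaks for Foxp1, 6 for Runx1, 1 for Nfib and 0 for Gata3 and Satb1. Trp63, the gene of p63, had none in 60.2 kb of bordering gene-poor DNA and 4 peaks inside or within 25 kb of the gene. These 6 genes were named after their values were seen.

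Secreted signals, receptors and antagonists had a gene-poor peak in 23 of 46 cases (50%, 36.1 to 63.9%), at 3.53 per Mb (2.75 to 4.45), or 2.91 without the interval of Jag1. Their bordering gene-poor DNA had a median of 200.1 kb. After Jag1 and Epha4, 5 genes had 4 peaks each. They were Dll1, the activin subunit genes Inhbb and Inhba, the growth factor receptor gene Fgfr2 and the neurotrophin gene Ntf3. Inhba was the nearer coding gene for 0 of its 4 peaks, Dll1 and Inhbb for 1 each, and Fgfr2 and Ntf3 for 2 each. Among feedback genes of kinase signalling 7 of 12 had a peak (58.3%, 32.0 to 80.7%), at 2.09 per Mb (1.11 to 3.57). That density interval covers the 1.13 per Mb of all gene-poor DNA. Bordering gene-poor DNA had a median of 414.4 kb for these genes, against 244.1 kb for all bordering genes. Spred2, an inhibitor of Ras signalling, led them with 4 peaks, and Trib2 and the MAP kinase phosphatase genes Dusp6 and Dusp4 had 2 each. Spred2 was the nearer coding gene for all 4 of its peaks, Trib2 for 1, and Dusp6 and Dusp4 for 0.

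Of 48 keratinocyte adhesion and matrix genes, 11 border gene-poor DNA (median 306.0 kb), as do 2353 of all 20556 coding genes (median 244.1 kb). Of the 11, 7 had a peak (63.6%, 35.4 to 84.8%), at 1.60 per Mb. The interval of this density (0.801 to 2.87) covers the 1.13 per Mb of all gene-poor DNA. The matrix gene Tnc had 3, and the tight junction gene Cldn1 and the adhesion gene Nectin1 had 2 each. Tnc was the nearer coding gene for 1 of its 3 peaks, and Cldn1 and Nectin1 for both of theirs. Of 7 bordering p53 response genes, 5 had a peak (71.4%, 35.9 to 91.8%), at 4.55 per Mb (2.35 to 7.94). Gadd45g and Gadd45a, both stress-response genes, had 4 and 3 peaks, and Plk2, a polo-like kinase gene, had 3. The nearer coding gene was Gadd45g for 3 of its 4, Gadd45a for 2 of its 3 and Plk2 for 2 of its 3. With so few genes, the intervals of both lists are wide.

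Genes of other cell types gave the comparison. Developmental transcription factors of other tissues had a peak in 23 of 59 cases (39.0%, 27.6 to 51.7%), but at 1.06 per Mb, near the value for all gene-poor DNA. Their bordering gene-poor DNA had a median of 527.0 kb. Sox2, which is also active in hair follicle papilla, had 7, and Irx1, Nr2f2 and Meis1 4 each. The nearer coding gene was Sox2 for 6 of its 7, Irx1 for 3, Nr2f2 for 4 and Meis1 for 0. Neuronal adhesion and synapse genes, whose bordering gene-poor DNA had a median of 1418.8 kb, had a peak in 34 of 83 cases (41.0%) but only 0.295 per Mb (0.215 to 0.395). Cdh7 led that list with 7 peaks, and Flrt2 and Pcdh7 had 4 each. The nearer coding gene was Cdh7 for 1 of its 7, Flrt2 for 3 of its 4 and Pcdh7 for 1 of its 4. For these long stretches the share of genes with a peak and the density thus lay on opposite sides of the values for all genes. Of 5 leukocyte genes 3 had a peak (Il7, Tox and Ikzf2), of 8 fibroblast genes 1 (Col5a2), and of 4 endothelial genes and 1 muscle gene none.

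**Figure D4:**
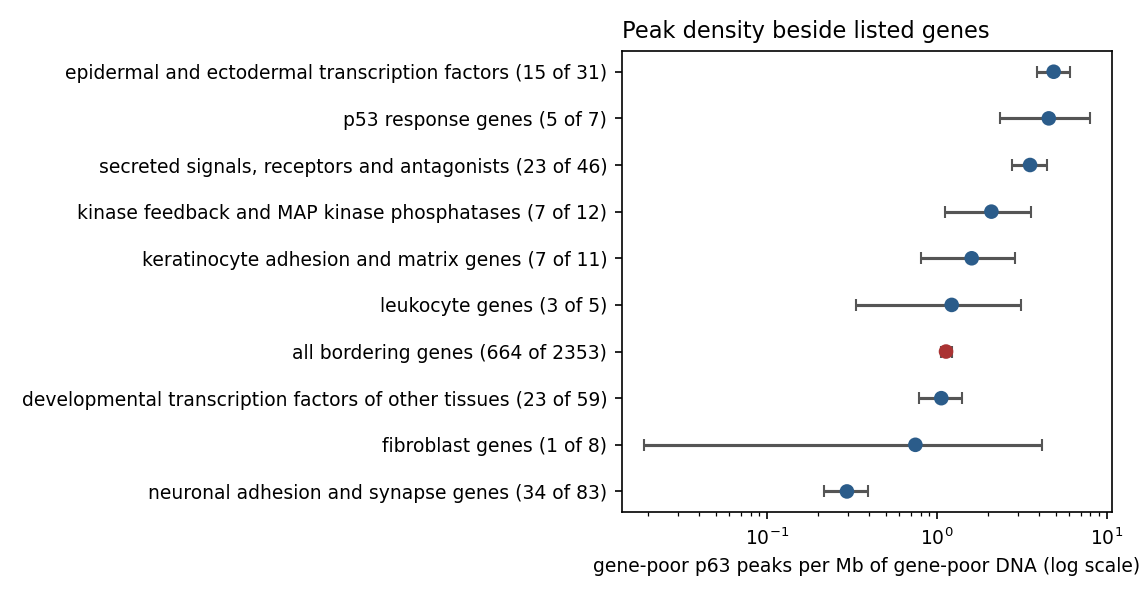
Gene-poor p63 peaks per Mb of gene-poor DNA beside the genes of each list (x, log scale), with 95% exact Poisson intervals, for lists with at least 5 bordering genes. Parentheses give genes with a peak of those bordering; epidermal transcription factors (4.86) and secreted signals (3.53) lie above all bordering genes (red, 1.13), and neuronal adhesion genes (0.295) below. The lists were written with earlier results of these data known.

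Peaks close at hand were counted for the same bordering genes. Of the 664, 265 (39.9%, 36.3 to 43.7%) had another p63 peak inside them or within 25 kb, against 397 of the 1689 bordering genes without a gene-poor peak (23.5%, 21.5 to 25.6%). The order was the same among genes with up to 100 kb of gene-poor DNA (45.3% and 27.7%), with 100 to 500 kb (46.8% and 22.2%) and with more (34.3% and 19%). As for orientation, 311 of 551 gene-poor peaks with a known strand for the nearest gene (56.4%, 52.3 to 60.5%) faced its start rather than its end. That share was 57.8% for peaks between genes at 1 to 100 kb. Counted by gene ends, 52.8% of those that border gene-poor DNA are starts (50.6 to 54.9%), as are 50.9% of those with a gene-poor peak beside them (46.6 to 55.2%).

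Noncoding genes overlapped 171 gene-poor peaks (22.9%, 20 to 26.1%), almost all of them lncRNA genes (168 peaks), against 19.7% of peaks between genes at up to 100 kb and 13.0% of all peaks on these chromosomes. Noncoding genes cover 11.8% of gene-poor DNA. The overlapped genes numbered 136, of which 129 carry predicted or clone names, so most have no known role. Gm31816, between Gm4791 and the cell adhesion gene Cadm1, held the most, 5 peaks. After it, 2610035D17Rik at Sox9 and Gm34061 at Klf5 held 4 each. The 7 genes with 3 peaks were 4930544M13Rik, beside the activin antagonist gene Fst, 9530036O11Rik, beside the hedgehog ligand gene Shh, Gm29960, beside Zbtb20, Gm30085, Gm31013, Gm35551, beside Zfp36l2, and Zmiz1os1, beside Zmiz1.

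A smaller share of gene-poor peaks than of other peaks had a neighbour, at each of 5 distances from 5 to 100 kb. At 5 kb the shares were 16.5% and 19.1%, and their intervals overlapped. Another p63 peak lay within 10 kb of 184 gene-poor peaks (24.7%, 21.7 to 27.9%), against 29.8% (28.7 to 30.8%) of all other peaks and 29.3% of all peaks on these chromosomes. Within 100 kb the shares were 65.1% and 78.7%, and the closest other peak was a median of 50.3 and 26.6 kb away. These shares were not adjusted for peak density, which was 1.13 per Mb in gene-poor DNA and 4.33 elsewhere. Whether gene-poor peaks lie closer together or further apart than their density would give was not tested. For 260 gene-poor peaks (34.9%) no other peak lay within 100 kb. Joined within 10 kb, the 746 peaks fell into 645 sites, of which 562 were single peaks, 65 pairs, 15 groups of 3, 1 a group of 4 and 2 the groups of 5 at Mir205. Of these sites, 2 also held peaks nearer to a gene, so that groups of 3 or more held 54 gene-poor peaks: a group of 3 in Zmiz1os1 and the group of 4 each had 1. The group of 4 was in Pvt1, at chr15:62075309-62093072.

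The widths of gene-poor peaks had a median of 295.5 bp (quartiles 233 and 382.5 bp, range 150 to 1309 bp), against 307 bp for all other peaks (243 and 393.2 bp, range 138 to 1494 bp). Over 700 bp were 32 (4.29%), against 2.07% of all other peaks and 2.27% of all peaks on these chromosomes. Pooled over the 15 leading intervals, the median was 344 bp and 10.1% were over 700 bp. Peaks alone in their interval had a median of 275.5 bp and 1.56% over 700 bp. The leading intervals were not alike in this. Their own medians ran from 277 bp (Adam34l to Fat1) to 558 bp (Opa1 to Hes1), on both sides of the 295.5 bp of all gene-poor peaks. Without those 15 intervals 2.96% of gene-poor peaks were over 700 bp.

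**Figure D5:**
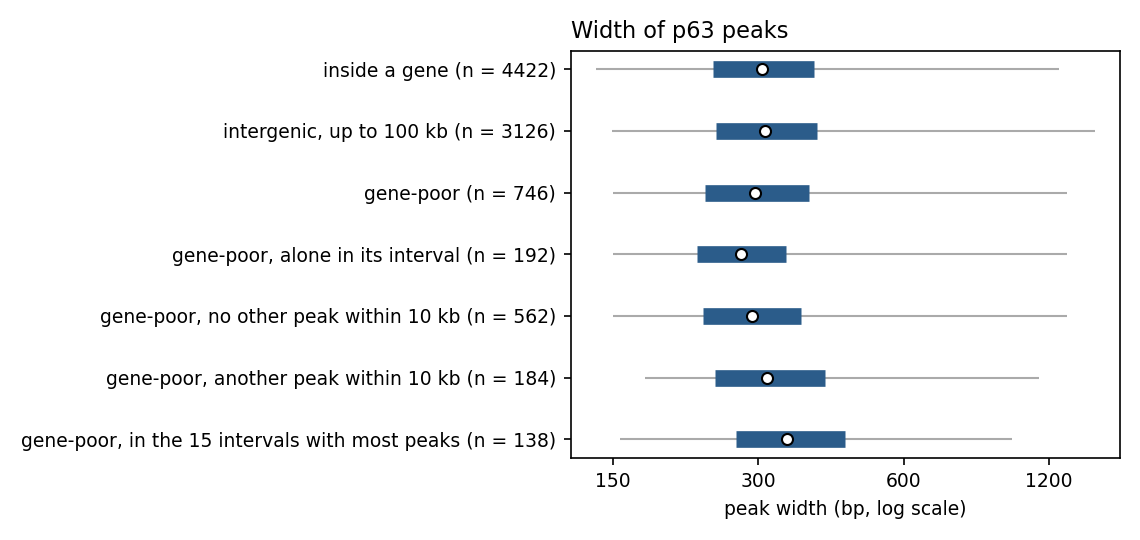
Width of p63 peaks in bp (x, log scale) for sets of peaks; circles are medians, bars quartiles and lines the full range. The median is 275.5 bp for gene-poor peaks alone in their interval and 344 bp for those in the 15 intervals with most peaks, beside 305 bp inside genes.

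The widest gene-poor peak, 1309 bp at chr14:19417706-19419014 between Gm41099 and Gm2244, and the next, 1147 bp at chr2:98666201-98667347 between Lrrc4c and Iftap, lie in stretches of mm10 that are known, as general background and not from a list among the deposited data, to collect reads in many mouse ChIP-seq sets. In all, 6 gene-poor peaks lay in such stretches, the others being 2 more beside the second and 2 on chromosome 9 below Alkbh8, and their reads were not examined here. Without the 6, 3.92% of gene-poor peaks were over 700 bp, the density was 1.13 per Mb and the median width 295 bp. Next came a peak of 1143 bp at chr12:107755004-107756146, 154.8 kb from Bcl11b, a transcription factor of epidermal and T cell development. A peak of 1006 bp at chr15:61532535-61533540 lay 452.3 kb from Myc. The fifth, of 976 bp at chr16:15114339-15115314 between Efcab1 and Ube2v2, overlapped 130 bases of the start window of the lncRNA gene Gm41423. It did not reach the start itself, at 15114218. Among the 10 widest, 4 lay in the intervals that border Myc, 3 of them in the interval with A1bg, and 1 in the interval of Fat1. Another 1, of 870 bp, lay between Klf4 and Actl7b, 1050.2 kb from Klf4 and 157.3 kb from Actl7b. A further 5 gene-poor peaks lay within 100 kb of antigen receptor gene segments, which the gene table does not class as protein-coding.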

How the data were processed

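Per the labels, the authors made the p63 peak list by running the irreproducible discovery rate on the p63 libraries of MK1 and MK2 (single-end reads of 50 bp). Reads were handled with Bowtie 1.1.1 and SAMtools 1.1 on mm10, per the submitters' processing notes. For the peak caller and its thresholds, the sources used here give nothing. The deposited list holds 3 columns (chromosome, start, end), so its values are positions only. Starts were made 1-based. Gene extents are those of RefSeq on GRCm38.p6, after removal of 328 entries with scaffold positions, which left 46710 genes, 20556 of them protein-coding. Territory was counted from the first to the last annotated gene of each chromosome. Strand was known for 16456 coding genes.

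Shares carry 95% Wilson intervals and densities 95% exact Poisson intervals. Python 3.11.15, pandas 2.3.3 and scipy 1.17.1 were used, and the placement of peaks was checked on simulated data. Of 503 entries in 11 gene lists, 492 matched a coding gene on chromosomes 1 to 19. Genes were named by rule: flanking genes of the 15 intervals with most gene-poor peaks, the 10 noncoding genes with most, up to 5 genes per list with most, flanking genes of the 5 widest, the 5 most remote and the peaks at the threshold, and Mir205hg, Mir205, Myc and Sox9. A gene that the rule names is not reported here. The members, lists and rules were chosen with earlier results of these data known. The motif search covered promoter windows only, since no genome sequence was used.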

Additional observations from a re-analysis of the deposited data

How the results depend on the processing

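With 1 list and no scores, the precision of each value rests on peak counts alone, a missing peak can mean too few reads, and leaving out a library was not possible. No paired analysis was possible because 1 peak list was made from both lines together. Nearest gene by position does not show which gene a site acts on. Territory by full chromosome length and motif searches in whole peaks were not run, for want of chromosome sequence.

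The number of gene-poor peaks was 1235 at a threshold of 50 kb, 369 at 200 kb, 102 when noncoding genes and pseudogenes counted as genes, and 349 for peaks at least as wide as the median of all peaks. It stayed between 740 and 771 under the other 5 settings. Density was 1.47 per Mb at 50 kb, 0.8 at 200 kb, 0.979 for sites joined within 10 kb and 0.945 without the 15 leading intervals. The ratio of the density elsewhere to it was 3.07 at 50 kb, 5.10 at 200 kb and 3.67 for sites joined within 10 kb, and above 1 in each case. Leaving out the 15 leading intervals gave 4.58. That setting could only raise the ratio, since those intervals were chosen for their counts. The share with another peak close by was 16.5% within 5 kb, 35.3% within 25 kb and 49.9% within 50 kb. The share at a noncoding gene was 37.7% for genes within 10 kb and 1.47% without predicted or clone-named genes, so it rests on such gene models. Intervals with a peak were 37.6% of those of at least 500 kb and 45.9% of those of at least 1000 kb. Counting only the gene nearest each peak, 17.5% of all bordering genes had 1. For epidermal transcription factors it was 32.3%, for developmental transcription factors of other tissues 28.8% and for secreted signals 34.8%. It was 42.9% for p53 response genes, 41.7% for kinase feedback genes and 45.5% for keratinocyte adhesion and matrix genes. Neuronal adhesion genes stood at 25.3%, leukocyte genes at 60% (3 of 5), and fibroblast, endothelial and muscle genes at 0%. Median width stayed between 289 and 300 bp. The settings without stretches known for read pile-up, with antigen receptor segments, and without the leading intervals were chosen after seeing the data.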

Other observations

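The X chromosome was outside the rule. By the same distances, 20 of its 155 peaks (12.9%, 95% Wilson interval 8.51 to 19.1%) were gene-poor, at 0.360 per Mb (95% exact Poisson interval 0.220 to 0.556) of its 55.5 Mb of gene-poor DNA. The most in 1 interval were 3, between Egfl6, which encodes a matrix protein of the epidermal growth factor repeat family, and Tmsb4x, which encodes the actin-binding peptide thymosin beta 4. Another 2 lay between H2al1j and Bcor, a transcriptional corepressor gene, at 471.1 and 215.3 kb from Bcor. Between Efnb1, an ephrin ligand gene, and Pja1 lay 1 peak, at 177.4 kb from Efnb1.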
